A study of Mus musculus with 29 samples.

Results

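The 9 genes described here, Lpl, Cd36, Fabp5, Plin2, Soat1, Lipa, Abca1, Abcg1 and Ch25h, handle lipids from uptake through storage and breakdown to efflux. They were chosen by name, with earlier results of these data known, as 9 of the 19704 genes in the tables of young mouse brain. Their levels were followed in single cells of brain and blood after stroke. All 9 were present in the tables of aged brain and 8 in those of blood, where Ch25h was not analysed here. In the stroke groups blood flow through the middle cerebral artery, a main feeding vessel of the forebrain, was stopped for a time and restored, and the sham groups had surgery only. All mice were C57BL/6J. The young groups were males aged 8 to 10 weeks. Their brains were sampled in 4 libraries each for sham at day 2, stroke at day 2 and stroke at day 14, and their blood in 4, 4 and 3. The aged groups (17 to 20 months) were of both sexes. Sham at day 2 had 1 male and 1 female brain library, stroke at day 2 had 1 male and 2 female ones, and day 14 after stroke had a single female one. Each brain library pooled 4 to 5 hemispheres and was sorted for cells with high CD45, microglia and endothelial cells. Each blood library pooled leukocytes of 2 mice. There was no sham group at day 14, so both stroke times were set against the same day 2 sham libraries, and the time since surgery cannot be told apart from stroke at day 14.

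Lipids enter a phagocyte as fatty acids, as lipoproteins or as membranes of engulfed cells. Lipoprotein lipase (Lpl) frees fatty acids from lipoproteins, Cd36 takes up fatty acids and oxidised lipoproteins, and Fabp5 carries fatty acids within the cell. Plin2 coats lipid droplets, Soat1 esterifies cholesterol for storage, and Lipa splits the esters of lipids taken up into lysosomes. Abca1 and Abcg1 export cholesterol, and both are known targets of the liver X receptors, which sense oxysterols such as the 25-hydroxycholesterol made by Ch25h. In the brain these genes are known from microglia and macrophages that clear myelin and debris after injury.

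On the mm10 assembly (coordinates from the GENCODE vM21 annotation), Lpl lies at chr8:68880491-68907448, Cd36 at chr5:17781690-17888801, Fabp5 at chr3:10012548-10016607, Plin2 at chr4:86648386-86670060 and Soat1 at chr1:156424525-156474331. Lipa lies at chr19:34492318-34527474, Ch25h at chr19:34473778-34475164, Abca1 at chr4:53030787-53159895 and Abcg1 at chr17:31057675-31117988. Lpl, Fabp5 and Abcg1 are on the plus strand and the other 6 on the minus strand. Ch25h and Lipa are neighbours, 17153 bases apart on one strand. Fabp5 has a processed copy elsewhere in the genome, Fabp5l2, that could share reads with it. RefSeq promoter windows (GRCm38.p6, the mm10 assembly, 250 bases before the start to 50 after it) were matched for 6 of the 9 genes. They are shown for Plin2, Ch25h and Abca1, up to 10 bases past the outermost annotated start, 5′ to 3′ on the gene's strand. Capitals mark matches to the motifs searched.
Plin2, chr4:86670051-86670309: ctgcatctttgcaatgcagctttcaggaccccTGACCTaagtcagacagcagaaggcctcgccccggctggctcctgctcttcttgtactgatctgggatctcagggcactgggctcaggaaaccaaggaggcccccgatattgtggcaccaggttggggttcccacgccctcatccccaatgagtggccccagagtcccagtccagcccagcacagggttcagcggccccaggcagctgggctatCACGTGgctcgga
Ch25h, chr19:34475155-34475398: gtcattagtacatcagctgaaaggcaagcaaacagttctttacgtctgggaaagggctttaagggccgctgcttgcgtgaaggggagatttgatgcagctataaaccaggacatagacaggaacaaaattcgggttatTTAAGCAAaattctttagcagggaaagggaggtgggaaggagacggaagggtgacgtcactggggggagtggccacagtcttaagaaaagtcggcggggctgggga
Abca1, chr4:53159886-53160145: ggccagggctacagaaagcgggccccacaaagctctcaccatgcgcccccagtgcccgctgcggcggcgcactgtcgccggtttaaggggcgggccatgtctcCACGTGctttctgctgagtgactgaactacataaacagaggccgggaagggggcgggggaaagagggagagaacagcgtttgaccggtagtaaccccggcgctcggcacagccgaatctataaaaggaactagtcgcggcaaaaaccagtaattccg

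Both strands of the windows were searched for 6 motifs. The nuclear receptor half-site AGGTCA was in 2 of the 6 windows (Plin2 and Cd36, in the reverse form TGACCT) and in 16.3% of all 32851 windows. The E-box CACGTG was in 2 (Plin2 and Abca1) against 7.15% of all, and the C/EBP motif TTGCNNAA in 1 (Ch25h, as TTAAGCAA) against 10.8%. No window held TGACTCA or TGAGTCA (AP-1, 5.2% of all), GAAANNGAA (interferon response, 8.56%) or GAGGAAGT (PU.1, 3.2%). The 2 AP-1 forms are the same site read on either strand, and a match describes letters in the window, not binding.

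Counts of each library were summed over the cells of one deposited type and given as counts per 1000000 counts of that type (CPM). Brain libraries held 1143 to 5121 cells and 819438 to 5855047 counts, blood libraries 2360 to 6328 cells and 966914 to 5232662 counts. The code Mg had the microglial markers highest, MdC the monocyte-derived, BAM the border macrophage, EC the endothelial, Gran (brain) and Neu (blood) the neutrophil and Mo (blood) the monocyte-derived markers. DC had the monocyte-derived list highest in both tissues, so it is called by its code. Of 406 pairs of libraries, 231 shared at least 1 cell barcode, at most 7 (0.169% of the smaller library). In 0 pairs were the summed profiles of the libraries identical, and profiles of single cells were not compared. Young sham brains gave 43 to 99 MdC per library (18299 to 112149 counts), so levels of monocyte-derived cells in sham rest on few counts. In young stroke day 2 replicate 3 the microglial code held 58 cells and 26321 counts. The summed microglial markers stood at 820 CPM there, against 15720 to 16490 CPM in the other young day 2 libraries and 19930 to 28560 CPM in young sham. Results of the 9 genes in microglia at day 2 are therefore given with this library and, once, without it.

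In microglia, the genes of uptake, carriage and droplet coating rose at day 2 by 4.08 to 5.36 on the log2 scale, while the cholesterol exporters were not called. Of the 9 genes, 6 were called higher and 0 lower in the quasi-likelihood test of edgeR with Benjamini-Hochberg adjustment over all genes (adjusted p under 0.05). Of all 10145 genes tested, 15.7% were called higher and 15.7% lower. The median log2 fold change was 4.08 over the 9 genes and -0.05 over all genes tested.

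Lpl, the secreted lipase, stood at 21.1, 9.01, 7.92 and 12.5 CPM in the 4 sham libraries and at 466, 534, 2.16 and 433 CPM at stroke day 2. Replicate 3, the library with few microglial counts, was below all sham libraries and the other 3 were above them. The log2 fold change was 5.15 ± 0.62 (SE, adjusted p = 9.13e-05 in edgeR), and 5.41 without replicate 3. At day 14 Lpl stood at 951, 769, 1002 and 394 CPM, all above every sham library. Relative to sham, the log2 fold change was 6.41 ± 0.65 (adjusted p = 2.03e-05, edgeR).

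Cd36, the scavenger receptor, was at 1.53, 1.05, 2.04 and 0 CPM in sham microglia, which is 6.26 counts over the 4 libraries. At day 2 it was at 48.4, 45.3, 19.5 and 30.1 CPM and at day 14 at 5.51, 2.69, 12.6 and 6.64 CPM. The 3 groups did not overlap, with day 2 highest and sham lowest. The log2 fold change was 5.26 ± 0.57 at day 2 (adjusted p = 3.99e-05, edgeR) and 3.06 ± 0.58 at day 14 (adjusted p = 0.00355).

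Fabp5, the fatty acid carrier, rose from 1.18, 4.0, 6.56 and 0.792 CPM in sham to 96.3, 97.0, 259 and 105 CPM at day 2. It stood at 235, 239, 328 and 170 CPM at day 14. Every stroke library was above every sham library, and the highest day 2 value came from replicate 3. The log2 fold change was 5.36 ± 0.47 at day 2 (adjusted p = 1.37e-05, edgeR, and 5.23 without replicate 3) and 6.79 ± 0.47 at day 14 (adjusted p = 1.77e-06).

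Plin2, the droplet coat protein, was at 18.7, 19.0, 31.0 and 27.6 CPM in sham. It was at 249, 220, 921 and 390 CPM at day 2 and at 163, 121, 195 and 146 CPM at day 14. The groups did not overlap, and day 2 was the highest. The log2 fold change was 4.08 ± 0.38 at day 2 (adjusted p = 1.54e-05, edgeR, and 3.79 without replicate 3) and 3.17 ± 0.36 at day 14 (adjusted p = 5.64e-05).

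Soat1, the cholesterol esterifying enzyme, was at 110.1, 67.5, 79.3 and 102 CPM in sham and at 108, 92.4, 80.0 and 111 CPM at day 2. Both groups overlapped (log2 fold change 0.37 ± 0.24, adjusted p = 0.248, edgeR). At day 14 it was at 110.5, 126, 196 and 139 CPM, all above sham though by little in the lowest library, with a log2 fold change of 1.15 ± 0.23 (adjusted p = 0.00538).

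Lipa, the lysosomal lipase, was at 129, 104, 97.9 and 128 CPM in sham. It was at 178, 173, 237 and 166 CPM at day 2 and at 231, 218, 295 and 177 CPM at day 14. Every stroke library was above every sham library. On the log2 scale the change was 0.78 ± 0.20 at day 2 (adjusted p = 0.0109, edgeR, and 0.0501 in DESeq2 with a log2 fold change of 0.55) and 1.47 ± 0.20 at day 14 (adjusted p = 0.000212).

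Ch25h, the oxysterol enzyme, was close to undetected in sham microglia, with 1.57 counts over 4 libraries and 0.847 CPM in the highest of them. At day 2 it was at 85.6, 64.6, 0 and 95.9 CPM and at day 14 at 133, 96.4, 183 and 76.8 CPM. All stroke libraries but replicate 3 of day 2 were above sham. With counts rounded to whole numbers, which takes sham to 2, ratios of pooled CPM were 248 (95% counting interval 68.1 to 2050) at day 2 and 352 (97.1 to 2910) at day 14. Both were called in edgeR (adjusted p = 1.59e-05 and 3.5e-06). Ch25h and its neighbour Lipa thus both rose, Lipa from a level already present in every sham library. Without day 2 replicate 3, 6 of the 9 genes were again called at day 2, beside 3051 of all genes (3182 with it). The log2 fold changes were 5.29 for Cd36 and 0.77 for Lipa (adjusted p = 0.0167, edgeR). Ch25h was among the called genes (adjusted p = 3.22e-05) and Soat1 was not (0.42, adjusted p = 0.203).

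The exporters did not pass the test against sham in microglia. Abca1 was at 242, 171, 168 and 175 CPM in sham, at 185, 176, 29.0 and 61.6 CPM at day 2 and at 277, 200, 188 and 216 CPM at day 14. Its log2 fold change was -0.39 ± 0.32 at day 2 (adjusted p = 0.368, edgeR) and 0.69 ± 0.31 at day 14 (adjusted p = 0.14). Abcg1 was at 141, 191, 224 and 249 CPM in sham, at 167, 94.7, 90.2 and 87.6 CPM at day 2 and at 217, 184, 266 and 296 CPM at day 14. Of the day 2 libraries, 3 lay below all sham libraries and replicate 1 among them. The fitted log2 fold change was -0.68 ± 0.28 at day 2 (adjusted p = 0.0776, edgeR) and 0.71 ± 0.26 at day 14 (adjusted p = 0.0782). Without day 2 replicate 3 the day 2 values were -0.29 for Abca1 (adjusted p = 0.476) and -0.62 for Abcg1 (adjusted p = 0.119).

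At day 14, 7 of the 9 genes were called higher than sham and 0 lower, against 10.6% and 4.66% of all genes tested. The median log2 fold change was 3.06 over the 9 genes and -0.04 over all genes. Between the stroke times, Abcg1 and Fabp5 were called higher at day 14 and Cd36 lower, against 3.47% of all genes called higher and 3.46% lower. Abcg1 was higher in every day 14 library than in any of day 2 (log2 fold change 1.39 ± 0.28, adjusted p = 0.0101, edgeR). Cd36 differed by -2.19 ± 0.45 on the log2 scale (adjusted p = 0.0111) and Fabp5 by 1.43 ± 0.37 (adjusted p = 0.0324), with overlap of its libraries. The Fabp5 call was lost in 6 of 15 alternative analyses (adjusted p up to 0.163). Plin2 and Abca1 did not overlap between the times either, Plin2 being lower at day 14 (-0.91 ± 0.33, adjusted p = 0.12) and Abca1 higher (1.08 ± 0.33, adjusted p = 0.0645), without passing the test. Without day 2 replicate 3 the values were 1.33 for Abcg1, -2.22 for Cd36 and 1.55 for Fabp5, all called, and -0.63 for Plin2 (adjusted p = 0.236) and 0.96 for Abca1 (adjusted p = 0.0802). The number of the 9 genes called between the times was 1 without day 2 replicate 1 or without day 2 replicate 4. The share of all genes called in those fits is not given, so this change cannot be read as particular to the lipid genes.

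**Figure D1:**
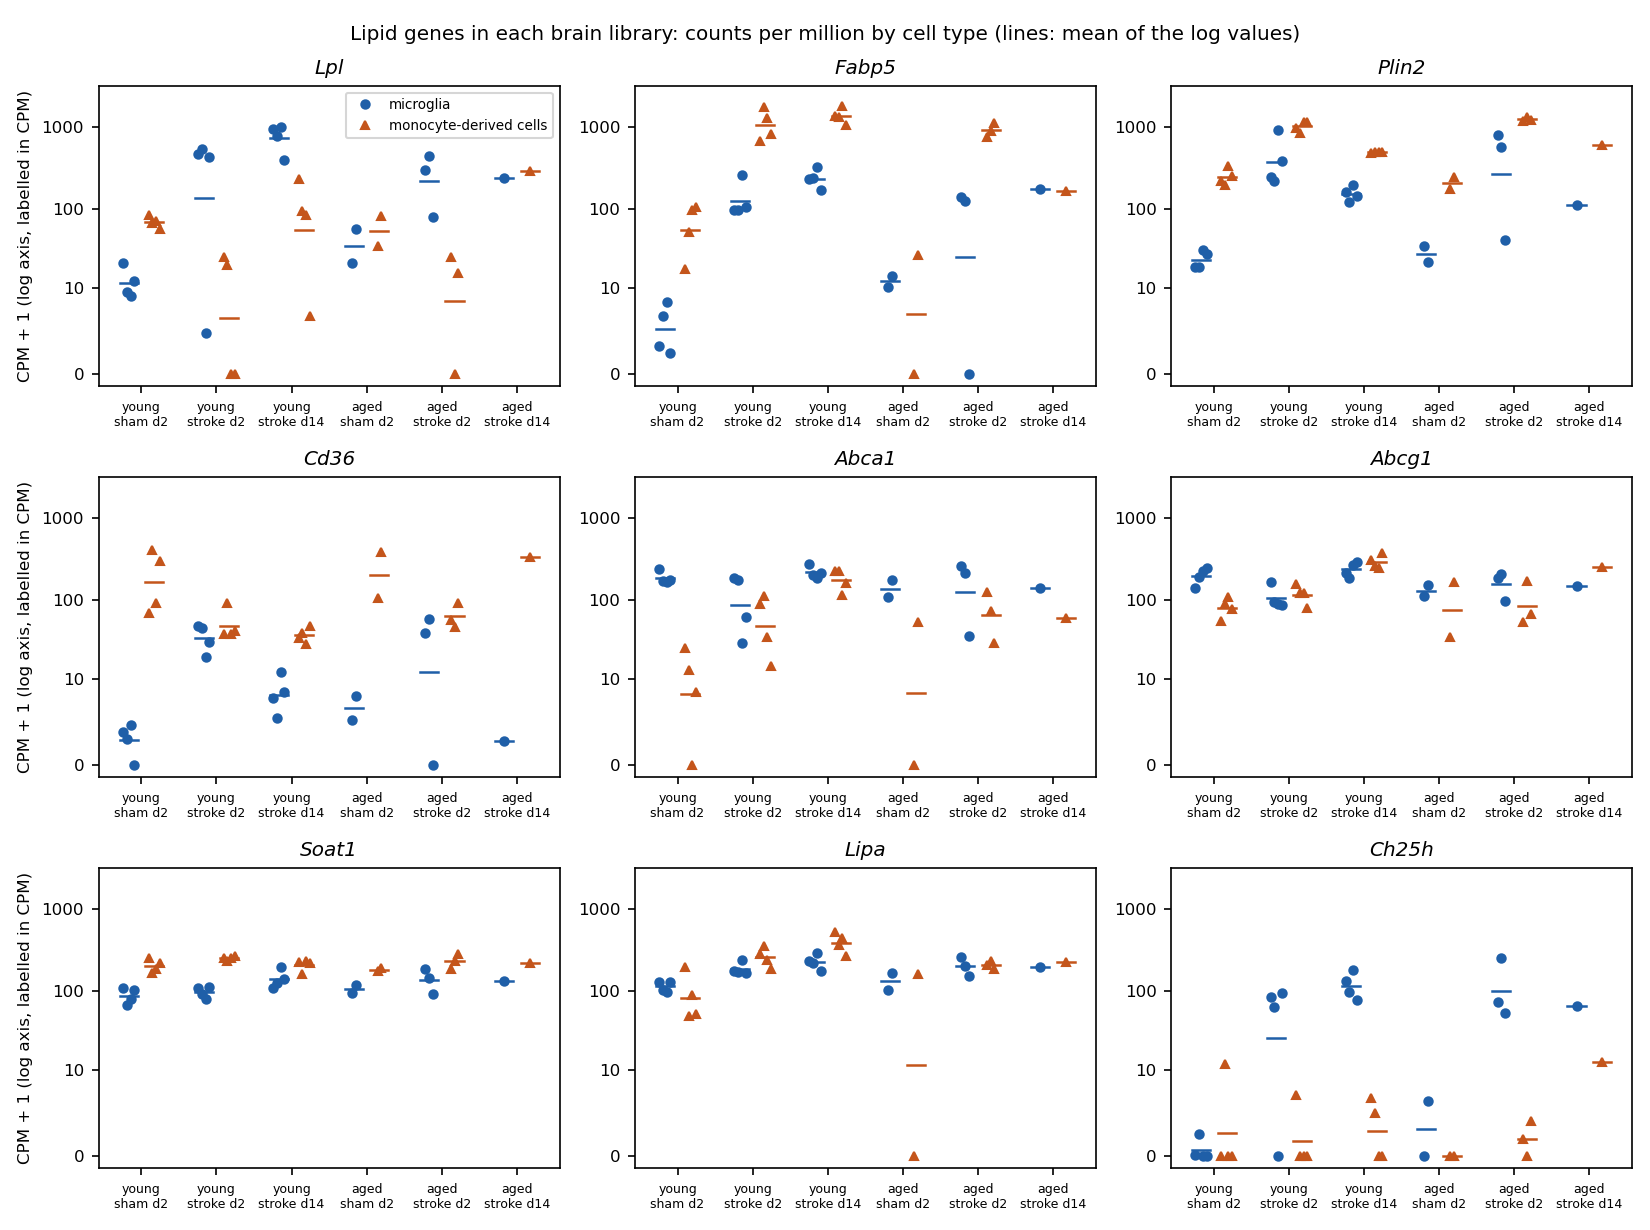
Level of each gene in CPM (log axis of CPM + 1) in microglia (circles) and monocyte-derived cells (triangles), 1 point per brain library, by age and group, with lines at the mean of the log values. In young microglia Fabp5 and Plin2 lie above all sham libraries in every stroke library, whereas Lpl and Ch25h do so in all but day 2 replicate 3, which holds 58 cells.

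Markers of monocyte-derived cells were also higher after stroke in microglia of young brain, except in day 2 replicate 4. Their sum over 7 genes in microglia was 0.000209 to 28.7 CPM in sham (Fn1 at 0), 24.5 to 853 CPM at day 2 and 31.1 to 173 CPM at day 14. This was at most 0.243% of the level in monocyte-derived cells of the same library in sham, 0.236% to 8.44% at day 2 and 0.329% to 2.43% at day 14. In day 2 replicates 1 to 4 the markers stood at 3.58%, 4.75%, 8.44% and 0.236%, microglial Fabp5 at 14.1%, 5.52%, 19.8% and 12.8% and Plin2 at 25.5%, 25.7%, 80.3% and 33.6% of their levels in monocyte-derived cells. In replicate 2 the shares of the markers and of Fabp5 were thus close. In replicate 4 the markers (24.5 CPM) lay within the sham range, with microglial Fabp5 at 105 CPM and Plin2 at 390 CPM. At day 14 Fabp5 stood at 16.1% to 18.2%, and Lpl and Ch25h were higher in microglia than in monocyte-derived cells in all 4 young libraries. The part of such RNA in the results was not tested.

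The young brain libraries also form 2 sets by the highest mitochondrial percentage among their cells, under 7% in sham replicate 1 and in replicates 1 and 2 of both stroke groups, and above it in the others. Within each set, differences of mean log2(CPM + 1) kept the sign for every called gene of microglia and monocyte-derived cells. At day 2 in microglia they were 4.50 and 1.80 for Lpl, 5.48 and 5.35 for Fabp5, 3.58 and 4.51 for Plin2 and 4.24 and 3.78 for Cd36 (set under 7% first). Without replicate 3 the second set had 1 stroke library, with 5.35 for Lpl, 4.70 for Fabp5, 3.89 for Plin2 and 4.08 for Cd36. Some called genes were close to no change in one set, with 0.10 and 1.00 for Soat1 in microglia at day 14 and 1.33 and 0.10 for Abcg1 in monocyte-derived cells at day 2. The set under 7% holds 1 sham library, so its values have no replicate check on that side.

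In monocyte-derived cells Fabp5, Plin2 and Lipa rose at both times, and at day 14 both exporters were called higher and Cd36 lower. Differences from microglia were not tested. At day 2, 4 of 8 genes tested were called higher and 0 lower, against 5.66% and 1.05% of all genes. At day 14, 5 were called higher and 1 lower, against 4.21% and 0.941%. The median log2 fold change was 1.38 at day 2 and 1.8 at day 14, and 0.29 and 0.28 over all genes tested. Ch25h was at 12.3 CPM or less in all young libraries of these cells and was not tested.

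Fabp5 in monocyte-derived cells was at 17.8, 51.8, 96.8 and 106 CPM in sham (10.8 counts in all). It was at 681, 1756, 1306 and 821 CPM at day 2 and at 1348, 1314, 1826 and 1055 CPM at day 14. All stroke libraries were above all sham libraries, and the stroke times overlapped. Against sham the log2 fold change was 4.86 ± 0.50 at day 2 (adjusted p = 9.75e-05, edgeR) and 5.11 ± 0.50 at day 14 (adjusted p = 3.22e-05).

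Plin2 was at 221, 198, 337 and 255 CPM in sham, at 977, 856, 1147 and 1160 CPM at day 2 and at 478, 497, 501 and 496 CPM at day 14. The 3 groups did not overlap. Relative to sham, the log2 fold change was 2.53 ± 0.27 at day 2 (adjusted p = 0.000101, edgeR) and 1.41 ± 0.26 at day 14 (adjusted p = 0.00467). From day 2 to day 14 Plin2 fell by 1.12 ± 0.23 on the log2 scale (adjusted p = 0.0209), a call lost in 5 of 15 alternative analyses (adjusted p up to 0.11).

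Lipa was at 196, 49.6, 89.4 and 52.9 CPM in sham, at 281, 354, 240 and 186 CPM at day 2 and at 523, 370, 448 and 267 CPM at day 14. Day 2 overlapped with sham through replicate 1 of sham, and day 14 did not overlap. On the log2 scale the change was 1.60 ± 0.38 at day 2 (adjusted p = 0.0218, edgeR) and 2.19 ± 0.38 at day 14 (adjusted p = 0.00337). The day 2 call was lost in 4 of 15 alternative analyses (adjusted p up to 0.106).

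Abca1 was at 25.5, 13.3, 0 and 6.63 CPM in sham, which is 3.74 counts over 4 libraries. It was at 90.4, 113, 35.2 and 14.97 CPM at day 2 and at 225, 224, 115 and 162 CPM at day 14. Day 14 stood above both other groups. Relative to sham, the log2 fold change was 3.82 ± 0.79 at day 14 (adjusted p = 0.00996, edgeR) and 2.27 ± 0.85 at day 2 (adjusted p = 0.131). Abcg1 was at 54.8, 90.6, 109 and 78.6 CPM in sham, at 158, 122, 122 and 79.1 CPM at day 2 and at 306, 260, 249 and 381 CPM at day 14. Relative to sham, the log2 fold change was 2.45 ± 0.32 at day 14 (adjusted p = 0.000404, edgeR), and every day 14 library was above all others. At day 2 it was 1.16 ± 0.33 (adjusted p = 0.0459), a call that was lost in 12 of 15 alternative analyses. From day 2 to day 14 Abcg1 rose by 1.29 ± 0.23 (adjusted p = 0.00987), and 1 of the 8 genes was called higher and 1 lower against 0.829% and 0.965% of all genes. The number of these genes called was 0 without day 14 replicate 4 or without day 2 replicate 4, with no share of all genes given for those fits.

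Cd36 was lower after stroke in monocyte-derived cells at day 14. It was at 68.9, 412, 93.1 and 302 CPM in sham, at 38.2, 91.5, 37.7 and 41.2 CPM at day 2 and at 34.4, 39.6, 28.3 and 47.9 CPM at day 14. Sham libraries spread widely, and all day 14 libraries lay below them. Its log2 fold change was -1.58 ± 0.51 at day 2 (adjusted p = 0.0799, edgeR) and -2.10 ± 0.53 at day 14 (adjusted p = 0.0297). Without sham replicate 2 the day 14 value was -1.23 and not called, and the call was also lost without sham replicate 4, day 14 replicate 1 or day 14 replicate 3. Lpl was at 85.4, 67.7, 72.2 and 57.3 CPM in sham, at 25.4, 20.0, 0 and 0 CPM at day 2 and at 232, 94.5, 83.7 and 4.14 CPM at day 14. Day 2 lay below sham, yet neither time passed the test (adjusted p = 0.33 and 0.81, edgeR). Soat1 was at 163 to 272 CPM in every young library of these cells and was not called at either time (adjusted p = 0.0839 and 0.396).

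Other markers moved in the monocyte-derived cells as well. The summed border macrophage markers were at 68.2 to 480 CPM in sham (Cd163, Lyve1 and Folr2 at 0), 523 to 1086 CPM at day 2 and 842 to 1381 CPM at day 14. Microglial markers were at 0 to 679, 270 to 924 and 373 to 2612 CPM in the same order. Neutrophil markers stood at 0 to 3404 CPM in sham against 29.0 to 248 CPM after stroke. Their part in the lipid gene results was not tested.

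**Figure D2:**
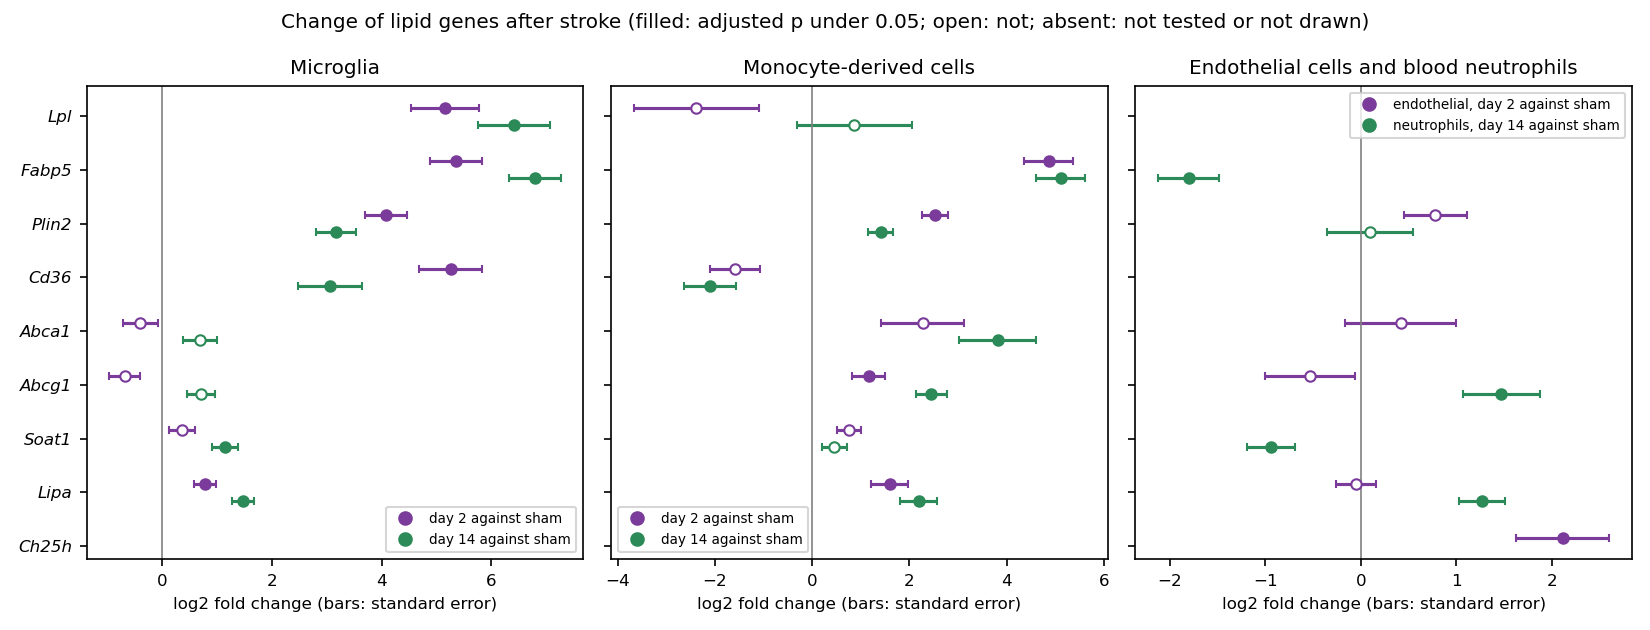
Log2 fold change (x axis, bars are standard errors) of each gene (y axis) against sham in microglia, monocyte-derived cells, endothelial cells and blood neutrophils of young mice. Filled points passed an adjusted p of 0.05, and Ch25h of microglia is not drawn because sham held 1.57 counts. Cd36 lies right of 0 in microglia and left of 0 in monocyte-derived cells at both times.

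The 45 other lipid genes looked at were grouped in 5 lists, and 32 of them were tested in microglia. At day 2, 9 were called higher and 2 lower, beside 15.7% and 15.7% of all genes. The scavenger receptor Msr1 was at 8.17 ± 3.13 CPM (SD, n = 4) in sham and 420 ± 171 CPM at day 2 (log2 fold change 5.63 ± 0.45, adjusted p = 8.17e-06, edgeR). The cholesteryl ester hydrolase Nceh1 rose by 2.21 ± 0.31 on the log2 scale and the droplet protein Hilpda by 1.59 ± 0.48. Day 2 replicate 3 carried the highest level of both. Nceh1 was at 164 CPM there (the other day 2 libraries 46.1 to 69.0) and Hilpda at 168 CPM (the others 20.1 to 48.4). Their results without this library are not given here. The fatty acid binding protein Fabp3 was also called, at 6.59, 4.24, 161 and 12.3 CPM in the day 2 libraries against 3.65 CPM in 1 sham library and 0 in the others. Its high value too is that of replicate 3, without which it was still called (adjusted p = 0.0111). The monoglyceride lipase Mgll fell by 1.82 ± 0.30, and Mylip, which targets lipoprotein receptors for degradation, fell by 1.26 ± 0.26. Replicate 3 was lowest for both, with Mgll at 0 CPM (the other day 2 libraries 25.1 to 36.4) and Mylip at 39.3 (the others 124 to 156). It was highest for Msr1, at 634 CPM (the others 275.5 to 480.5). Results of Msr1, Mgll and Mylip without replicate 3 are not given here. Of 6 sterol synthesis genes tested, 1 was called higher and 0 lower. This was Fdps (1.54 ± 0.44), at 95.8 CPM in replicate 3 and 13.9 to 23.3 CPM in the other day 2 libraries, and still called without replicate 3 (1.29, adjusted p = 0.0198).

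At day 14, 9 of the 32 were called higher and 1 lower, beside 10.6% and 4.66% of all genes. Fabp3 was at 83.8 ± 15.5 CPM (SD, n = 4) against 0.912 ± 1.83 in sham, Nceh1 at 116 ± 24.8 against 16.1 ± 4.04 and the lysosomal sterol carrier Npc2 at 3035 ± 333 against 1095 ± 59.8. Mgll was the lower one (-1.43 ± 0.27, adjusted p = 0.00357, edgeR), and 0 of the 6 sterol synthesis genes were called. Between the times Msr1 fell by 3.23 ± 0.39 on the log2 scale to 32.9 ± 16.1 CPM, while Npc2 (1.36 ± 0.24), Mylip (1.19 ± 0.26) and Fabp3 (3.11 ± 0.71) were called higher at day 14. Msr1 and Cd36, both scavenger receptors, were thus highest at day 2.

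In monocyte-derived cells 37 of the 45 were tested, and 9 were called higher and 0 lower at day 2, beside 5.66% and 1.05% of all genes. Cd68, a lysosomal protein that binds oxidised lipoproteins, rose by 2.61 ± 0.39 on the log2 scale, Hilpda by 3.02 ± 0.55 and Nceh1 by 2.91 ± 0.44. The oxidised lipoprotein receptor Olr1 (31.5 ± 5.38 CPM at day 2, SD, n = 4) and Fabp3 (25.9 ± 10.5 CPM) were at 0 in all sham libraries. Nr1h3, which encodes liver X receptor alpha, was at 0.833 ± 1.67 CPM in sham, 55.4 ± 14.0 CPM at day 2 and 31.7 ± 5.39 CPM at day 14. At day 14, 7 were called higher and 1 lower, beside 4.21% and 0.941% of all genes. By list, 5 of the 10 sterol sensing and transport genes tested were called higher. Mylip, like Abca1 and Abcg1 a known target of the liver X receptors, rose by 2.55 ± 0.51 (adjusted p = 0.00843, edgeR). The lipolysis inhibitor G0s2 fell by 4.03 ± 0.93 (adjusted p = 0.0189, edgeR), with overlap of its libraries. It was at 62.7 ± 51.1 CPM in sham and 2.85 ± 3.44 CPM at day 14. Between the times Hilpda fell by 2.85 ± 0.42, from 376 ± 122 to 54.1 ± 8.75 CPM.

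The deposited annotation divides microglia and monocyte-derived cells into sub-clusters, which were made from the genes of these cells, so their levels are a description. CPM of the pooled young libraries are given with exact 95% Poisson intervals, which cover counting error only. Lpl was at 12.5 (8.93 to 17.2) CPM in Mg1 and 13.7 (9.76 to 19.1) in Mg2, which together made up most of sham microglia (53.6% and 37.2%). It was at 840 (812 to 867) in Mg3, which held 66.1% of microglia at day 14, and at 820 (777 to 865) in Mg4 and 304 (282 to 327) in Mg5, which held 38.4% and 33.8% at day 2. Mg7, 4.95% of microglia at day 14, had 1110 (1050 to 1180) CPM.

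The sub-clusters separated the genes. Plin2 and Cd36 were highest in Mg4, at 624 (587 to 664) and 58.7 (47.8 to 71.9) CPM, and lower in Mg3, at 168 (156 to 180) and 7.17 (4.90 to 10.2). Fabp5 was similar in Mg3 (253, 238 to 268) and Mg4 (237, 214 to 262), and low in Mg5 (44.2, 36.1 to 53.5), the other main cluster of day 2. Ch25h was at 137 (126 to 149) CPM in Mg3, 118 (102 to 136) in Mg4 and 87.0 (75.5 to 99.8) in Mg5, and at 0.0153 (0 to 1.19) in Mg1. Abcg1 was at 105 (90.5 to 123) CPM in Mg4 and 112 (98.5 to 126) in Mg5, and at 251 (236 to 267) in Mg3. Abca1 was lowest in Mg5, at 86.4 (75.1 to 99.3) CPM, against 204 (189 to 221) in Mg1.

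In monocyte-derived cells MdC3 held 76.4% of sham cells, MdC1 31.4% and MdC2 28.8% of day 2 cells, and MdC6 34.0% of day 14 cells. Fabp5 was at 194 (173 to 217) CPM in MdC3, 473 (449 to 498) in MdC2, 2470 (2410 to 2520) in MdC1 and 2550 (2480 to 2620) in MdC6. Plin2 was highest in MdC1 at 1390 (1350 to 1430) CPM and was at 531 (500 to 563) in MdC6. MdC6 had the highest Lpl (186, 168 to 206), Abca1 (231, 210 to 252), Abcg1 (269, 247 to 292) and Lipa (594, 561 to 628). Cd36 was highest in MdC1, at 114 (102 to 127) CPM. These values pool sham and stroke cells, and the order of clusters within a group is not given. Ch25h was at or below 2.52 CPM in all 6.

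**Figure D3:**
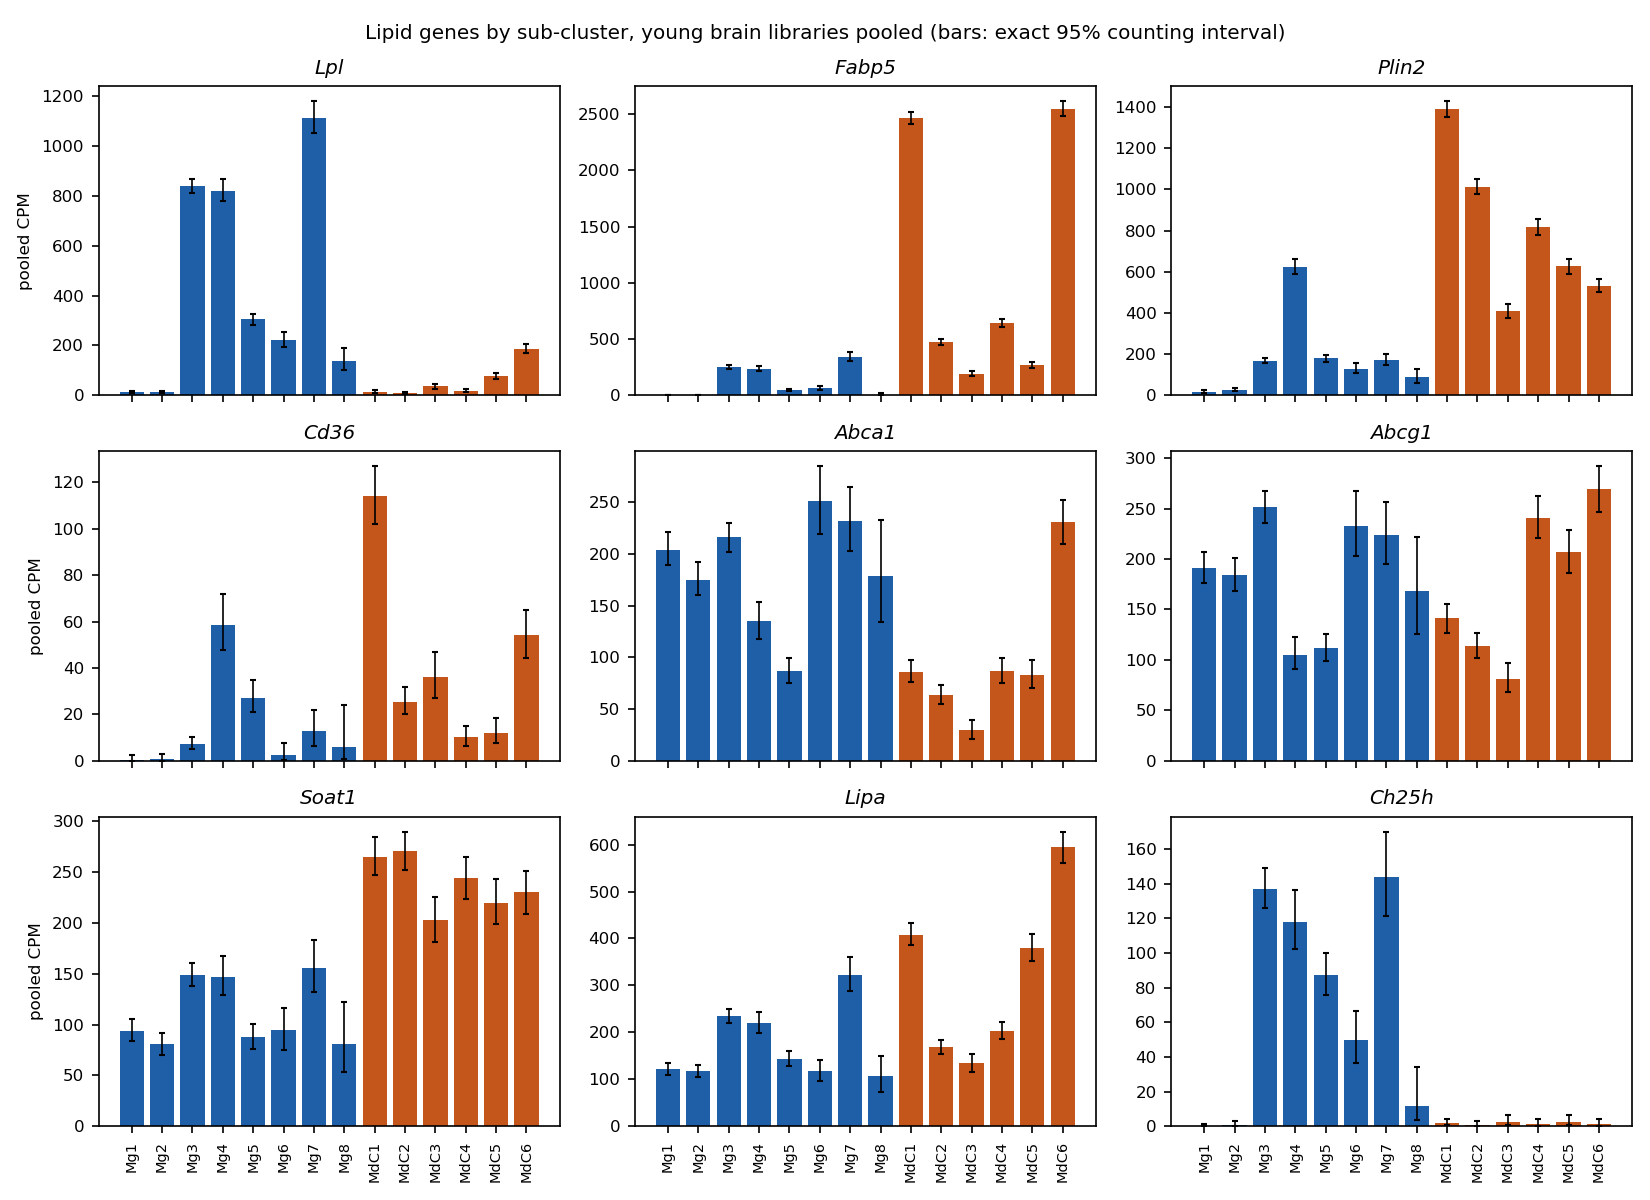
Pooled CPM (y axis, bars are exact 95% counting intervals) of each gene in the 8 microglial (blue) and 6 monocyte-derived (orange) sub-clusters of young brain. Ch25h is seen in microglial sub-clusters. Lpl is higher in Mg3, Mg4 and Mg7 than in MdC6, and higher in MdC6 than in Mg1 and Mg2. Fabp5 is highest in MdC1 and MdC6, and Plin2 within microglia is highest in Mg4.

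In endothelial cells Ch25h was the gene that changed. It was at 97.2, 110, 0 and 9.09 CPM in sham, at 248, 315, 232 and 307 CPM at day 2 and at 58.2, 51.8, 74.6 and 7.41 CPM at day 14. Day 2 lay above both other groups, which overlapped. The fitted log2 fold change was 2.11 ± 0.49 at day 2 against sham (adjusted p = 0.0119, edgeR) and -2.51 ± 0.49 at day 14 against day 2 (adjusted p = 0.00533). Of the 5 genes tested, 1 was called higher at day 2 against 6.89% of all genes, and 1 lower between the times against 6.14%.

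At day 14 against sham 0 of the 5 were called in endothelial cells, 0 also in DESeq2, and 0 had an unadjusted p under 0.05. The same held for all genes in that comparison, with 0.0% called and 356 at an unadjusted p under 0.05. Lipa was at 118 to 248 CPM in every young endothelial library and Plin2 at 23.4 to 107 CPM. Lpl (8.43 CPM or less), Fabp5 (7.69 or less), Cd36 (6.38 or less) and Soat1 (18.1 or less) were too low to be tested there. Of the other lipid genes, 21 were tested, and Pltp, a phospholipid transfer protein, was the one called at day 2 (2494 ± 510 to 1232 ± 344 CPM, SD, n = 4, log2 fold change -0.92 ± 0.25, adjusted p = 0.0229, edgeR), beside 6.45% of all genes called lower.

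Blood monocytes and neutrophils were tested separately, and the difference between them was not tested. Monocytes showed no call at either time among the 7 genes tested, with 0.0% of all genes called at day 2 (189 of 6706 at an unadjusted p under 0.05) and 0.254% at day 14. Of the 7, 0 had an unadjusted p under 0.05 and 0 were called by DESeq2 at either time. Lpl in monocytes was at 26.8, 70.1, 28.2 and 80.7 CPM in sham, 33.7, 0, 69.0 and 83.8 CPM at day 2 and 189, 102 and 41.2 CPM at day 14, with overlap of all groups (log2 fold change 1.12 ± 0.54 at day 14, adjusted p = 0.926, edgeR). Cd36 was at 43.4 to 370 CPM and Soat1 at 197 to 294 CPM over all 11 libraries. Abca1 was at 1.78 to 15.7 CPM and was not tested.

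In neutrophils 0 of 5 genes were called at day 2, as for all genes (0.0%, with 209 of 4944 at an unadjusted p under 0.05). Of the 5, 0 had an unadjusted p under 0.05 and 0 were called by DESeq2. At day 14, 2 were called higher and 2 lower, against 2.18% and 3.8% of all genes. Fabp5 was at 340, 207, 260 and 237 CPM in sham, 278, 171, 342 and 178 CPM at day 2 and 116, 78.4 and 98.2 CPM at day 14. Day 14 lay below both other groups (log2 fold change -1.80 ± 0.32 against sham, adjusted p = 0.00474, edgeR).

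Lipa in neutrophils was at 39.0, 49.0, 30.7 and 51.7 CPM in sham, 41.2, 82.3, 54.9 and 53.7 CPM at day 2 and 149, 97.6 and 132 CPM at day 14. Day 14 was above the other groups (1.27 ± 0.24, adjusted p = 0.00612, edgeR). Abcg1 was at 26.0, 74.6, 28.8 and 64.1 CPM in sham and 153, 124 and 182 CPM at day 14, without overlap of these groups (1.47 ± 0.40, adjusted p = 0.0412, edgeR). At day 2 Abcg1 was at 28.9 to 139 CPM, which overlapped with day 14. Soat1 was at 140, 205, 129 and 105 CPM in sham and 73.4, 108 and 105 CPM at day 14, with overlap (-0.94 ± 0.25, adjusted p = 0.0362). The Abcg1 call was lost in 5 and the Soat1 call in 8 of 13 alternative analyses. Scaling matters in this comparison, as with library size alone the median of all genes moved by 0.34 on the log2 scale and the share of higher calls went from 36.5% to 74.7%, yet the 4 genes kept their directions.

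**Figure D4:**
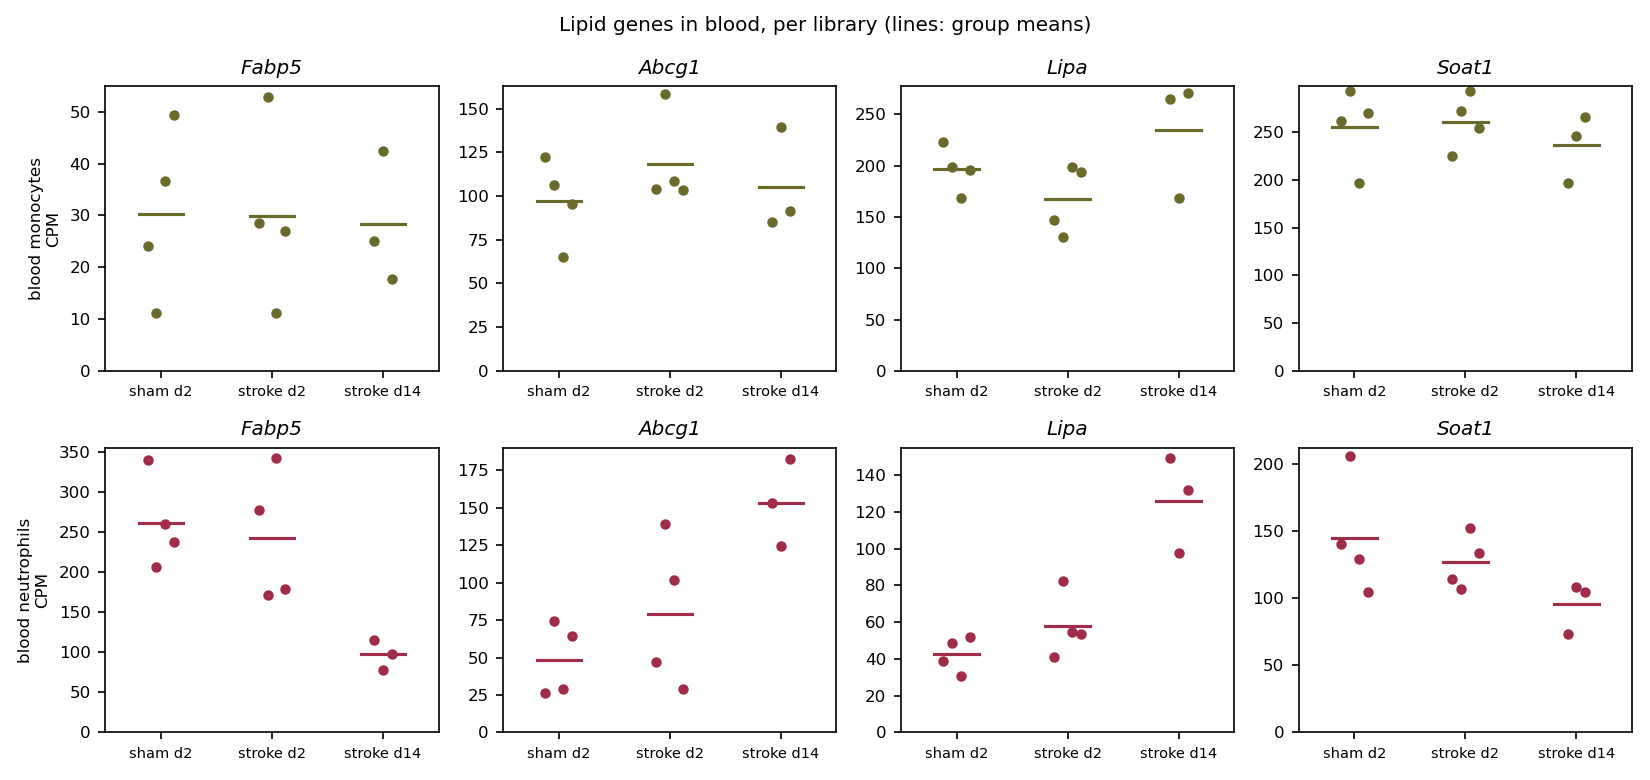
CPM (y axis) of Fabp5, Abcg1, Lipa and Soat1 in blood monocytes and neutrophils, 1 point per library with lines at group means. In neutrophils Fabp5 falls and Abcg1 and Lipa lie higher at day 14 without overlap with sham, whereas in monocytes the groups overlap.

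Brain monocyte-derived cells at day 2 were set against blood monocytes at day 2, from which such cells are known to arise. Cells of the tissues were prepared differently, with papain digestion and sorting for brain, so preparation and tissue cannot be told apart. Of the 8 genes tested, 4 were called higher in brain and 1 lower, against 13.4% and 11.4% of all genes. Fabp5 was at 681 to 1756 CPM in brain and 11.2 to 52.9 CPM in blood (log2 fold change 5.67 ± 0.46, adjusted p = 5.05e-06, edgeR), without overlap.

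Plin2 was at 856 to 1160 CPM in brain against 159 to 333 CPM in blood (2.62 ± 0.29, adjusted p = 4.47e-05, edgeR) and Abca1 at 14.97 to 113 against 6.20 to 12.6 CPM (3.13 ± 0.63, adjusted p = 0.00323), both without overlap. Lipa overlapped (0.88 ± 0.24, adjusted p = 0.0171, edgeR), and its call was lost in 2 of 13 alternative analyses (adjusted p up to 0.0739). Cd36 was lower in brain, at 37.7 to 91.5 CPM against 63.7 to 367 CPM in blood (-1.48 ± 0.43, adjusted p = 0.0237), and this call was lost in 6 of 13 alternatives. Abcg1, Soat1 and Lpl were not called (adjusted p = 0.309, 0.403 and 0.169). Of the other lipid genes, 36 were tested, with 11 higher in brain and 3 lower, beside 13.4% and 11.4% of all genes. Hilpda was at 376 ± 122 CPM in brain against 4.35 ± 4.10 in blood (SD, n = 4).

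Aged microglia were compared at day 2 in 3 stroke and 2 sham libraries. Plin2 was at 34.8 CPM in the male and 22.2 in the female sham library, and at 794 (male), 574 and 41.9 CPM (females) after stroke. Ch25h was at 0 and 3.60 CPM in sham and at 74.3, 253 and 53.4 CPM after stroke in the same order. Both were called, with log2 fold changes of 4.19 ± 0.87 (adjusted p = 0.0175, edgeR) and 5.61 ± 0.95 (adjusted p = 0.00864), and no stroke library overlapped with sham. The Plin2 call was lost in 4 and the Ch25h call in 3 of 11 alternative analyses, among them the fit of only the compared groups. The summed markers of monocyte-derived cells in these microglia were at 28.2 and 45.3 CPM in sham and at 85.5, 90.5 and 202 CPM after stroke, and their part in the results was not tested. In all, 2 of 9 genes were called higher and 0 lower, against 1.78% of all genes called higher.

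Lpl was at 21.5 and 57.02 CPM in aged sham and at 299, 448 and 80.0 CPM after stroke (2.80 ± 0.79, adjusted p = 0.076, edgeR). Fabp5 went from 10.5 and 14.4 CPM to 140, 125 and 0.000128 CPM and Cd36 from 2.502 and 5.87 to 39.4, 57.9 and 0 CPM, with adjusted p of 0.0823 and 0.0783. Female stroke replicate 2, with 170 microglia, had the lowest value of each of these 5 genes among stroke libraries. Without it 5 of the 9 genes were called. The share of all genes called in that fit is not given, so this change cannot be read as particular to the lipid genes. With either sham library left out, only the other stood for sham, and the calls did not hold.

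Age goes with sex in these libraries, since all young mice were male. The test of the difference between ages in the response to stroke called 0 of the 9 genes, also in DESeq2, and 0.0% of all genes, with 623 of 11096 at an unadjusted p under 0.05. Of the 9, 3 had an unadjusted p under 0.05. The differences in log2 fold change, aged minus young, were -2.39 ± 0.93 for Lpl, -2.48 ± 1.09 for Fabp5 and -2.37 ± 1.10 for Cd36 (adjusted p = 0.768 for each, edgeR), and 0.12 ± 0.98 for Plin2 (adjusted p = 1.0). In the 1 aged library of day 14, Lpl was at 242 CPM, Fabp5 at 175, Plin2 at 111 and Ch25h at 66.1 CPM in microglia, with no replicate.

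Across all cell types of young brain with at least 20 cells in at least 2 libraries, the order of levels differed by gene and changed with stroke. These orders are a description, since cell types were assigned from the expression of the same cells. Cd36 was highest in border macrophages in each group, with means of 375 CPM in sham, 409 at day 2 and 197 at day 14, overlapping with monocyte-derived cells in sham, separate from all other types at day 2, and overlapping at day 14 with the DC code, which reached 94.9 CPM against 92.1 in the lowest border macrophage library. Ch25h was highest in endothelial cells in sham (mean 54.1 CPM) and day 2 (276 CPM) and in microglia at day 14 (122 CPM against 48.0 in endothelial cells), the last 2 without overlap with any other type.

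Fabp5 was highest in the granulocyte code in sham (241 CPM, separate from all others, of which monocyte-derived cells were next at 68.1) and in monocyte-derived cells after stroke (1141 and 1386 CPM, separate from all others). Plin2 was highest in monocyte-derived cells in all 3 groups (253, 1035 and 493 CPM), followed by border macrophages (238, 772 and 265 CPM), with overlap in sham and day 2. Lpl was highest in microglia at day 14 (779 CPM, separate from border macrophages at 109) and on average at day 2, when its range (2.16 to 534 CPM) overlapped with 5 other types, among them border macrophages, which reached 647 CPM in 1 library. Of these 5, only border macrophages reached the other 3 microglial libraries (433 to 534 CPM), since 2.16 CPM is the value of replicate 3.

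The exporters were highest in microglia in sham, Abca1 at 189 CPM, separate from all other types, and Abcg1 at 201 CPM, where 1 library of T cells (141.1 CPM) lay just above the lowest of microglia (140.7 CPM). At day 14 Abcg1 was at 366 CPM in granulocytes, 299 in monocyte-derived cells and 241 in microglia, and these neighbours overlapped. Soat1 was highest in monocyte-derived cells in all 3 groups (205, 254 and 212 CPM), separate from all others in sham and day 2 and overlapping with granulocytes (197 CPM) and microglia at day 14. Lipa was highest in endothelial cells in sham (225 CPM), border macrophages at day 2 (340 CPM) and monocyte-derived cells at day 14 (402 CPM), each overlapping with another type. In blood Abca1 was highest in B cells in all 3 groups (94.3, 115 and 57.1 CPM), apart from all others at day 2.

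**Figure D5:**
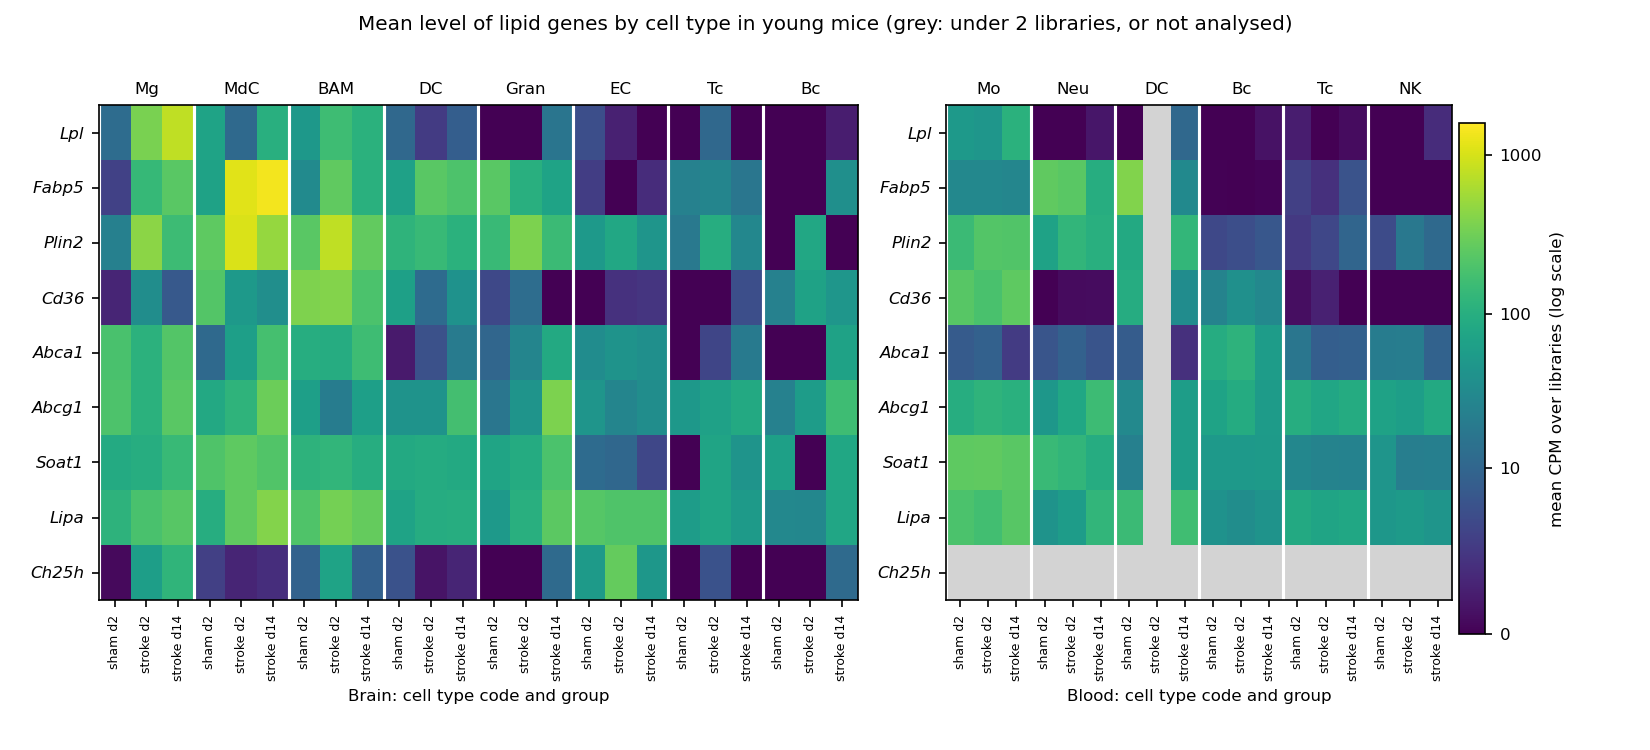
Mean CPM (colour, log scale) of each gene (rows) by cell type code and group (columns) in young brain and blood, grey where fewer than 2 libraries had 20 cells or the gene was not analysed. Fabp5 and Plin2 are brightest in monocyte-derived cells after stroke, Lpl in microglia after stroke, and Cd36 in border macrophages and blood monocytes.

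Genes with the most similar pattern over 27 means of brain cell type and group were looked up among 11720 genes. The points share libraries, so the correlations describe these data. Lpl was most like C3ar1 (r = 0.876) and Lamp1 (0.857), Fabp5 like Clec7a (0.898) and Ifi211 (0.831), and Plin2 like Socs3 (0.813) and Tnfrsf1a (0.811). Cd36 was most like Gm6377 (0.84) and Lyz1 (0.807), Abca1 like Mertk (0.838) and Tpp1 (0.833), and Abcg1 like Tgfb1 (0.811) and Tgs1 (0.803). Soat1 was most like Amdhd2 (0.894) and Fcgr2b (0.878), Lipa like Phf11d (0.828) and Ly96 (0.813), and Ch25h like Tcim (0.805) and Maged1 (0.771). Among the 9 genes the highest r was 0.735, between Fabp5 and Soat1, and the lowest -0.142, between Abcg1 and Ch25h.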

How the data were processed

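The data are Drop-seq counts of transcripts in single cells. The authors deposited expected counts per gene and cell of which only 0.009% to 4.47% of non-zero values per library are exactly whole, and metadata with a count of detected genes, the percent of mitochondrial counts and cell type codes at 2 levels. Per the submitters' processing notes Seurat and mm10 were used; the step that made counts fractional, the aligner and the cell filters are not given in the sources used here. All deposited cells were kept, and doublets were not called.

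For each cell type with at least 20 cells in a library, its counts were added up and rounded. Young brain and blood were each fitted over their 3 groups in edgeR 4.0.16 by quasi-likelihood in R 4.3.3 (TMM scaling, filterByExpr, Benjamini-Hochberg adjustment over all genes tested, two-sided). Standard errors of edgeR log2 fold changes are the absolute log2 fold change divided by the square root of the F statistic of the test. They are thus worked back from the test and are not errors given by the fit. The script was tested on simulated data. Brain was set against blood on stroke day 2 libraries and the genes both tables hold, and aged microglia were fitted with the 4 brain groups of day 2. The labels do not say how independently the libraries of a group were prepared, so p-values measure the spread between libraries, which may be technical.

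The 9 genes, the lists, the tests and the rule for named genes (up to 2 called genes at each end of a list, by log2 fold change) were chosen with earlier results of these data known. Genes most alike were taken by Pearson r of log2(mean CPM + 1), in types of at least 200 cells, for genes averaging 5 CPM or more. Alternatives were DESeq2 1.42.0, library size alone, no filter on low counts, counts rounded up per cell, only the compared groups, the replicate number as a block, sex as a covariate for aged fits, each library left out and, added after seeing the data, a term for the 2 sets of libraries by mitochondrial percent. With either aged sham library left out, the other is assumed to vary like the other groups. Intervals of counts cover counting error only.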

Additional observations from a re-analysis of the deposited data

Results flagged for a closer look

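In 7 of 92 sets of 4 libraries the highest or lowest value stood far from the others (Dixon's criterion, which chance meets in about 1 set in 20). In microglia these were Abca1 in sham replicate 1 (242 CPM, the others 168 to 175), Ch25h in sham replicate 2 (0.847 CPM, the others 0 to 0.0304), Fabp5 in stroke day 2 replicate 3 (259 CPM, the others 96.3 to 105) and Abcg1 in stroke day 2 replicate 1 (167 CPM, the others 87.6 to 94.7). In other cells they were Cd36 of monocyte-derived cells in stroke day 2 replicate 2 (91.5 CPM, the others 37.7 to 41.2), Lipa of endothelial cells in day 14 replicate 2 (118 CPM, the others 228 to 238) and Abcg1 of blood monocytes in day 2 replicate 2 (158 CPM, the others 104 to 108).

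Among the cell types tested, opposite directions appeared in 3 places at day 14, where every stroke library lay on one side of sham in one cell type and on the other side in another. Cd36 was higher in microglia (log2 fold change 3.06) and lower in monocyte-derived cells (-2.10). Fabp5 was higher in microglia (6.79) and in monocyte-derived cells (5.11) and lower in blood neutrophils (-1.80). These differences between cell types were not tested, and both brain comparisons share libraries. How many of all genes part in this way is not given, so the count cannot be read as particular to the lipid genes.

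In young cell types outside the comparisons (brain and blood, at least 3 libraries a group), 129 sets of gene, type and time were looked at. In 9 of them every stroke library was above every sham library with at least 10 counts in the stroke group. Border macrophages at day 2 had Fabp5 at 261 CPM against 33.4 in sham and Plin2 at 772 against 238. The DC code at day 14 had Fabp5 at 202 against 67.6 CPM, Abcg1 at 177 against 42.7 and Abca1 at 20.6 against 0.686, a sham level of less than 1 pooled count. Granulocytes of brain at day 14 had Abcg1 at 366 against 16.9 CPM and Soat1 at 197 against 73.8. T cells of brain had Soat1 at 73.6 CPM at day 2 (3 libraries, 10 counts) and 44.5 CPM at day 14 (27 counts), with 0 counts in sham. In 1 set every stroke library lay below every sham library, with at least 10 counts in sham, namely Fabp5 in brain granulocytes at day 14 (0 to 102 CPM against 178 to 301). Values are means over libraries, and these sets were not tested. No share over all genes stands beside these counts, so they cannot be read as particular to the lipid genes.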

How the results depend on the processing

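Of 584 values of the 41 called gene results under alternatives, 519 stayed called in the same direction, 65 lost the call and 0 reversed. Of the 41 results, 26 were called under every alternative that tested the gene. An alternative in which the gene was not tested gave no value, as for Abca1 in brain against blood (10 values, against 13 for Fabp5). The causes were not tested. Of the 9 genes, aged microglia had 2 called, which became 4 with counts rounded up, 5 with no filter and 0 with only the compared groups. Microglia at day 14 against day 2 had 3, which became 6 in DESeq2, 5 with counts rounded up and 6 with a term for the mitochondrial sets. Over all genes DESeq2 called 876 in that comparison, against 703 in edgeR. Monocyte-derived cells at day 14 against day 2 had 2, which became 1 with no filter and 4 with that term. Blood monocytes at day 14 had 1 with no filter against 0, and endothelial cells at day 2 had 2 with counts rounded up against 1. For several of these fits, and for those with a library left out, no count over all genes is given. Changes in them cannot be read as particular to the lipid genes. With libraries left out in turn the counts ranged from 0 to 5 (aged microglia), 2 to 4 (neutrophils day 14), 3 to 5 (brain against blood), 1 to 4 (microglia day 14 against day 2), 0 to 3 (monocyte-derived cells day 14 against day 2), 2 to 4 (the same cells at day 2), 5 to 6 (at day 14), 6 to 7 (microglia day 2) and 7 to 7 (microglia day 14).

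Replicate numbers were not taken to pair the libraries, since the labels do not tie them. The lowest correlation of a same-numbered pair was -0.294 to -0.079 by cell type, which cannot decide whether numbers pair libraries. In young brain, replicates 1, 3 and 4 each kept the same mitochondrial set in every group, so number and set are tied in part. The median correlation was 0.033 to 0.114 for same numbers and -0.07 to -0.006 for others, and 5 to 8 of 12 brain and 5 of 11 blood libraries correlated best with their own number, a hint from the data and not the design. With the number as a block, monocyte-derived cells at day 14 against day 2 had 4 genes called (2 without it) and 469 of all genes (145 without it).

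Counts over all genes moved by more than 1.5 times in some fits. With library size alone 3425 genes were called in microglia at day 14 (1544 in edgeR with TMM), 1157 between the times (703) and 355 in monocyte-derived cells at day 2 (542). Between the times microglia had 1057 with counts rounded up and 426 with only the compared groups, and monocyte-derived cells 386 in DESeq2 and 348 with the mitochondrial term (145). Endothelial cells had 9 in DESeq2, 6 with no filter, 11 with counts rounded up, 1 with the block and 2 with the mitochondrial term at day 14 (0), and 404 with no filter between the times (654). Blood monocytes had 13 with no filter at day 2 (0), and 33 in DESeq2, 97 with no filter and 31 with the block at day 14 (17). Neutrophils had 32 with no filter at day 2 (0) and 487 at day 14 (296). Aged microglia had 466 in DESeq2, 393 with no filter, 386 with counts rounded up and 0 with only the compared groups (255), and the age difference 1 in DESeq2 and 17 with no filter (0). Library size alone shifted the median of all genes by -0.17 (microglia day 2), -0.45 (day 14), -0.29 (between the times), -0.42 and -0.39 (monocyte-derived cells at day 2 and day 14) and -0.24 (brain against blood) on the log2 scale. The share of higher calls went from 49.9% to 37.5%, 69.4% to 19.6%, 50.1% to 17.5%, 84.3% to 50.7%, 81.7% to 50.1% and 54.1% to 36.7% in that order. The few counts of sham monocyte-derived cells limit what their comparisons can show.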

Other observations

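In aged brain the lipid genes of other cell types were read as values, with no test. Endothelial Ch25h was at 188 (male) and 80.7 CPM (female) in sham, at 405 (male), 300 and 425 CPM (females) at stroke day 2 and at 184 CPM in the 1 library of day 14. Monocyte-derived cells had Fabp5 at 0 and 27.2 CPM in sham (33 and 52 cells) at 760, 898 and 1120 CPM at day 2 in the same order and at 165 CPM in the library of day 14 (87 cells). Their Plin2 was at 175 and 248 CPM in sham at 1172, 1327 and 1233 CPM at day 2 and at 609 CPM at day 14. Every stroke library of day 2 was above both sham libraries for these 3 genes. In the day 14 library Lpl was at 1261 CPM in border macrophages (83 cells), 294 CPM in monocyte-derived cells and 242 CPM in microglia, an order unlike that of the young day 14 means, where microglia were highest.

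Aged sham microglia of 2 libraries had Lpl at 21.5 and 57.02 CPM and Fabp5 at 10.5 and 14.4 CPM, above the 4 young sham libraries (Lpl 7.92 to 21.1 CPM, Fabp5 0.792 to 6.56 CPM). Age at sham was not tested, and 1 of the 2 aged libraries is female while all young ones are male. The deposited aged and young tables also differ in the genes they hold and in their share of whole counts.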
